A study of Mus musculus with 12 samples.

Results

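The type I and type II keratin gene clusters of the mouse were followed across region lists from chromatin immunoprecipitation with sequencing (ChIP-seq) of pancreatic cancer cell lines. Members were all listed regions that overlapped by at least 1 bp either of 2 windows on the build mm9. The type II window spans chromosome 15 from 101.15 to 101.87 Mb (720 kb) and holds Krt5, Krt8 and Krt18. The type I window spans chromosome 11 from 99.05 to 100.14 Mb (1090 kb) and holds Krt14, Krt17 and Krt19. There were 483 such regions among the 313566 of all 11 lists, 187 in the type II window and 296 in the type I window.

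The cell lines were labelled female or male and KDM6A-WT or KDM6A-KO, and every label, WT included, describes a line established from a mouse pancreatic cancer lacking K6A. Their medium was F12/DMEM with added EGF, and no treatment was given. H3K4me1 was listed in the female KO, female WT, male KO and male WT lines, MLL4 and KDM6A in both female lines, and H3K4me3, H3K27ac and H3K27me3 in the female WT line alone. Each group held 1 library, and the labels name neither clones nor separate cultures. A twelfth library, titled as input of the female WT line and given IgG as its antibody, had no list used here. With 1 library per group no difference has a replicate check and no p-value was computed. The lists hold no expression values, so the epithelial identity of the lines was not checked.

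Keratins are the intermediate filament proteins of epithelial cells. An acidic type I keratin pairs with a basic type II keratin, and the pair in use marks the kind of epithelium: Krt8 with Krt18 or Krt19 in simple epithelia such as pancreatic ducts, Krt5 with Krt14 in the basal layer of stratified epithelia, and the hair keratins in the hair shaft. All type II genes and Krt18 form 1 cluster, and the other type I genes form the other, interrupted by a large block of genes for keratin-associated proteins (Krtap), which crosslink the hair keratins. H3K4me1 marks enhancers, H3K27ac active enhancers and promoters, H3K4me3 promoters, and H3K27me3 is the mark of Polycomb repression. KDM6A removes H3K27me3 and belongs to the complexes of MLL4, which writes H3K4me1.

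The windows were divided into 11 parts along the known order of the keratin genes. In the type II window these were Krt80-Krt7 (110 kb, simple epithelial keratins), hair II (190 kb, Krt81 to Krt87 and their neighbours), basal II (110 kb, Krt5, Krt6a and Krt6b), suprabasal II (240 kb, the suprabasal Krt1 and Krt2, the oral Krt4 and Krt76 and the root sheath keratins Krt71 to Krt74) and Krt8-Krt18 (70 kb). In the type I window they were Krt222-Krt40 (360 kb), Krtap (450 kb), hair I (110 kb, Krt31 to Krt36), Krt13-Krt15 (30 kb), Krt19 (30 kb) and basal I (110 kb, Krt14, Krt16 and Krt17 with Krt9 and Krt42). Krt222-Krt40 holds the root sheath keratins Krt25 to Krt28, the suprabasal Krt10, the corneal Krt12 and also Krt20 and Krt23, which are made in simple epithelia of the gut and in glands. Krt8-Krt18 and Krt19 are called ductal here (100 kb together), basal I and basal II basal (220 kb), and hair II, Krtap and hair I hair (750 kb). The borders were set from general knowledge of gene spacing, as no mm9 annotation was at hand. The 54 keratin genes named in the parts stand in the same order in the RefSeq table of GRCm38.p6, a later build, with 23 Krtap symbols between Krt40 and Krt33a. Regions were therefore placed in parts and not on single genes.

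Promoters from RefSeq (GRCm38.p6) are shown for Krt8, Krt18 and Krt7, whose parts carried the leading H3K4me3 and H3K27ac regions of the windows, and for Krt5, whose part carried a weaker pair. Each runs 5′ to 3′ from 250 bases before to 50 bases after the start of the gene. On that build they lie at chr15:102004293-102004592 (minus strand, Krt8), chr15:102027966-102028265 (plus strand, Krt18), chr15:101412153-101412452 (plus strand, Krt7) and chr15:101712856-101713155 (minus strand, Krt5), positions that cannot be set against those in mm9. Capitals mark matches on either strand to TATAAA (the TATA box), GGGCGG (bound by SP factors), TGANTCA (bound by AP-1) or CACCC (bound by KLF factors).
Krt8: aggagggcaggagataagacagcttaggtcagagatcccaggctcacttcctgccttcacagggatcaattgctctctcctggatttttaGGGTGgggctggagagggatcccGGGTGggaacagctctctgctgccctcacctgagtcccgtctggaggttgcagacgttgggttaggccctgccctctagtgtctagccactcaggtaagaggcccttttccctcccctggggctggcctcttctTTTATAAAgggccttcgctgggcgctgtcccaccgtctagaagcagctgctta
Krt18: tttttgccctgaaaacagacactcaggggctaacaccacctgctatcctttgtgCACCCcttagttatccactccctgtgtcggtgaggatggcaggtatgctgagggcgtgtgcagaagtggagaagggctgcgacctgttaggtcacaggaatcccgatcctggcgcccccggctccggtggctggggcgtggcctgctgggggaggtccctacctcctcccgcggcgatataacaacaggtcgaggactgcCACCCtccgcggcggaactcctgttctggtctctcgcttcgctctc
Krt7: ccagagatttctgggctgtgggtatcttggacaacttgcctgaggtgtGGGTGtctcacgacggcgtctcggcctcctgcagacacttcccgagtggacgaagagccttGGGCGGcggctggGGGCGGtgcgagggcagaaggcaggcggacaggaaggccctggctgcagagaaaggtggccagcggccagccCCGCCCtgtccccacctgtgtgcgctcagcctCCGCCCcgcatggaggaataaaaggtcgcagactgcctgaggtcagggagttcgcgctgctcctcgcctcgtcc
Krt5: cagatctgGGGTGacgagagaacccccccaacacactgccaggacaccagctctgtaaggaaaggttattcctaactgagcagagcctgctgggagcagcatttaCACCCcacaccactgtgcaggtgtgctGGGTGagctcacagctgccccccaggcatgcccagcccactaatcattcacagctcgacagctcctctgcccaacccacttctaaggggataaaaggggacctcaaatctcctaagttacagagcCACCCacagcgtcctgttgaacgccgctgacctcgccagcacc
The Krt8 promoter held 2 matches to the TATA box, which overlap each other on the 2 strands, and 2 to the KLF motif. Krt18 had 2 matches to the KLF motif, Krt7 had 4 to the SP motif and 1 to the KLF motif, and Krt5 had 4 to the KLF motif. The AP-1 motif matched none of them in this window. Matches describe the letters and do not show binding. Of 32851 promoters of this length in the table, 13.6% held the TATA box, 35.7% the SP motif, 7.81% the AP-1 motif and 57.5% the KLF motif. CG dinucleotides numbered 21 in Krt7, 17 in Krt18, 6 in Krt8 and 6 in Krt5, against a median of 7 over the table. Of the 54 keratin genes 36 had an entry. The entry of Krt14 begins 1480 bp inside the gene's span and is not printed.

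**Figure D1:**
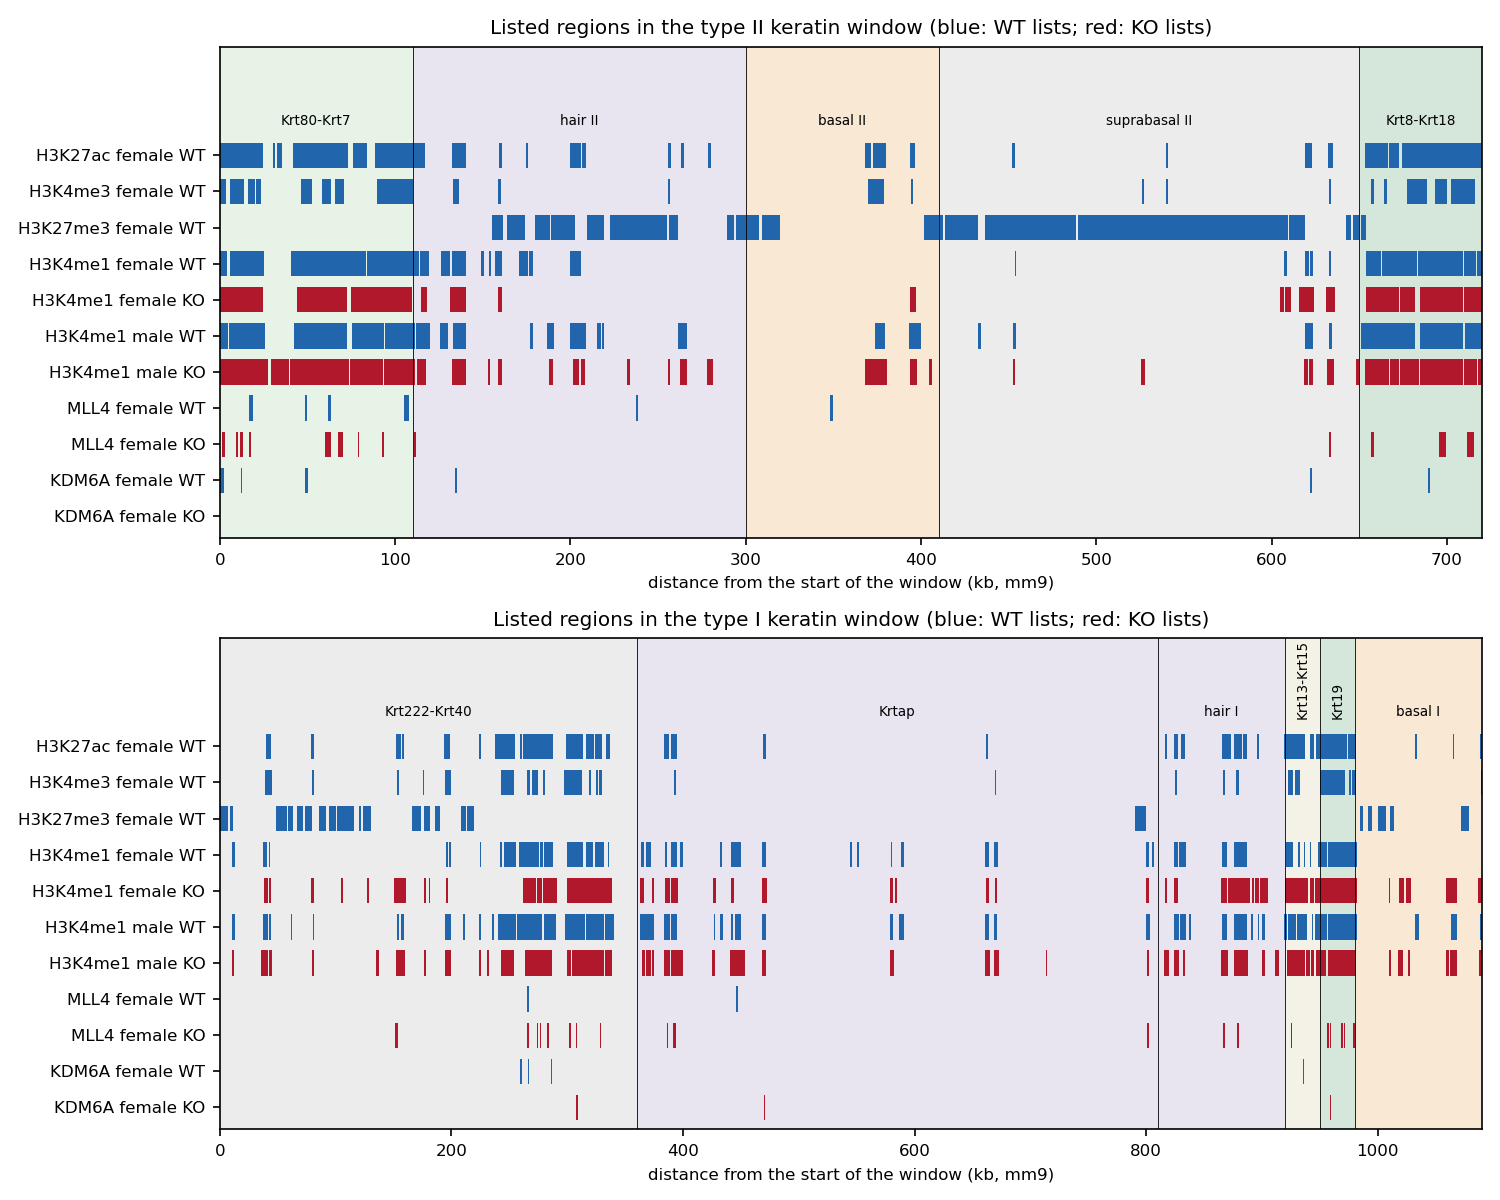
Every listed region (bars) of the 11 lists along the type II window (top) and the type I window (bottom), by distance in kb from the start of the window. Blue bars are WT lists and red bars KO lists, shading and vertical lines give the 11 parts, and bars of H3K27ac, H3K4me3 and H3K4me1 are dense at Krt80-Krt7, Krt8-Krt18 and Krt19, where H3K27me3 has 1 region in all.

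The first question was how the ductal keratin parts differed from the basal and hair parts in the female WT line, in which all 4 histone marks were listed. The ductal parts were almost fully acetylated. H3K27ac regions covered 93.0% of their 100 kb, against 9.09% of the basal and 9.87% of the hair parts, a difference of 83.3 percentage points from basal and hair together. Krt80-Krt7 and Krt13-Krt15, which are in none of these groups, were covered at 81.5% and 80.0%. The whole genome span was covered at 4.51%, chromosome 15 at 5.65% and chromosome 11 at 7.72%. Covered length is clipped to each part, so it does not depend on which part a region crossing a border is given to, and the values rest on 1 library per mark.

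H3K4me3 also covered more of the ductal parts than of the basal and hair parts. Its regions covered 60.6% of the ductal parts, 5.55% of the basal and 2.11% of the hair parts, and 2.88% of the genome span. At Krt19, the keratin typical of duct cells, 84.7% of the part was covered, and at Krt8-Krt18 50.3%. Krt80-Krt7, not counted as ductal here, was covered at 51.6%. H3K4me3 and H3K27ac coincided over 60.6 kb of the 100 kb, and a further 32.4 kb were acetylated without H3K4me3. In the ductal parts 96.1% of the acetylated length also carried H3K4me1, against 75.6% over the genome.

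H3K27me3 was spread in the opposite way among the type II parts. It covered 86.2% of suprabasal II, 50.2% of hair II and 24.0% of basal II, but 4.29% of Krt8-Krt18 and none of Krt80-Krt7. Over the genome span it covered 10.5%, and over chromosome 15 12.4%. The single H3K27me3 region of the ductal parts, chr15:101801001-101804000, held 81 reads and lay at the inner border of Krt8-Krt18, next to suprabasal II. On the type I side, H3K27me3 covered 27.6% of Krt222-Krt40 and 19.8% of basal I, 2.09% of Krtap, and none of hair I, Krt13-Krt15 or Krt19. The difference between ductal and the joined basal and hair parts was -12.8 percentage points. It rested on hair II and the basal parts, and it was -24.6 with the Krtap part left out and -6.6 with the inner borders moved 10 kb lower.

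The hair keratins of the 2 clusters carried different marks. H3K27me3 covered 50.2% of hair II and 0% of hair I, while H3K27ac covered 16.7% and 26.5% of them. The Krtap block carried little of either mark, and 86.7% of it lay in none of the H3K4me1, H3K4me3, H3K27ac and H3K27me3 regions of the female WT line, against 79.8% of the genome span. Of the ductal parts 1.0% was free of the 4 marks, and at Krt19 none. Acetylated and H3K27me3 regions seldom shared length: 9.2 kb of the 462.2 kb of H3K27me3 in the windows, or 1.99%, was also acetylated, against 1.12% over the genome.

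**Figure D2:**
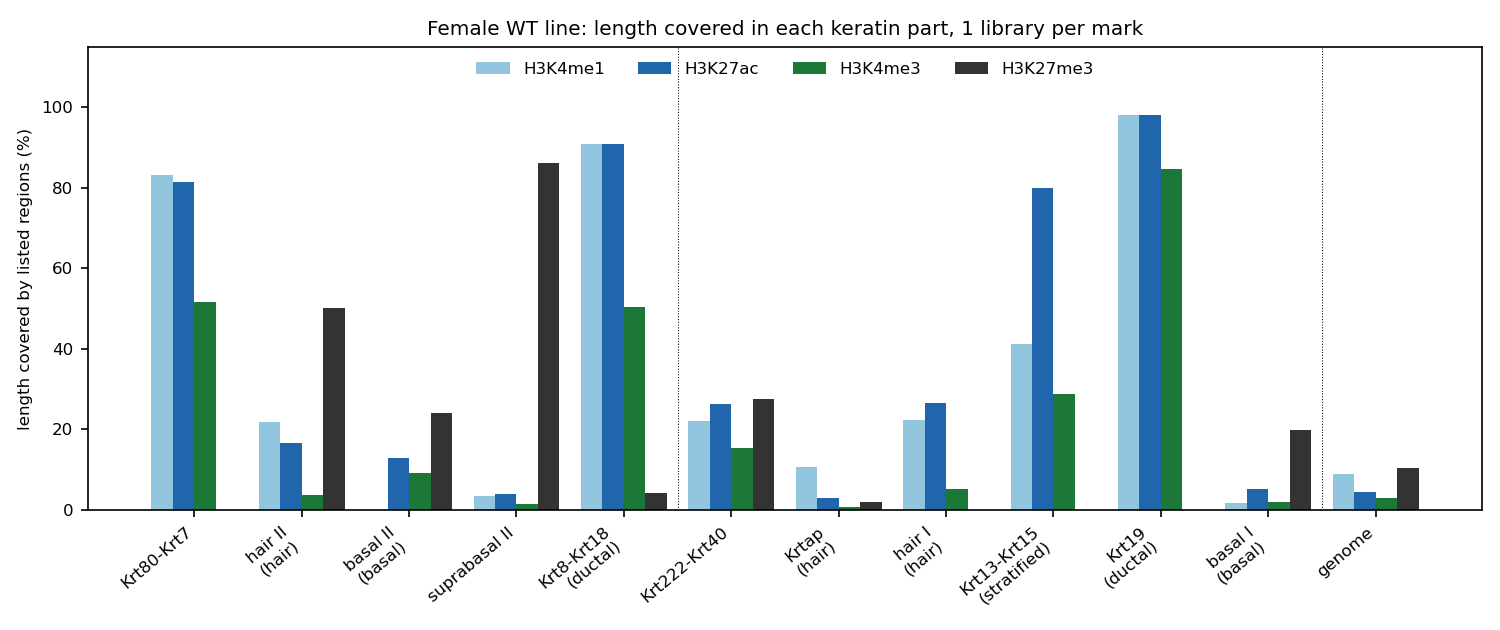
Percent of the length of each keratin part (bars, y axis) covered by H3K4me1, H3K27ac, H3K4me3 or H3K27me3 regions in the female WT line, with the genome span at the right and the clusters separated by a dotted line. The active marks stand high at Krt80-Krt7, Krt8-Krt18 and Krt19, and H3K27me3 stands highest at suprabasal II, at 86.2%.

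Single regions show how strong these signals were within their lists, where the number of reads in a region gives a rank but no level that can be compared between lists. Krt8-Krt18 held the widest acetylated region of the windows, chr15:101824601-101871200, 46.6 kb long with 6566 reads, rank 8 of 29284 H3K27ac regions. At Krt19 the leading one was chr11:99996401-100023800, with 4591 reads at rank 27. At Krt80-Krt7, chr15:101145801-101174800 held 7140 reads (rank 5) and chr15:101191801-101222800 held 4960 (rank 23). The first of these starts before the window and may in part belong to genes outside the cluster. Krt7, also a duct keratin, lies at the inner end of that part, where chr15:101238601-101267200 held 2967 reads at rank 69.

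Regions that crossed a border were named with the part that holds most of them, and 3 acetylated ones reached across: chr15:101238601-101267200 (2967 reads) from Krt80-Krt7 into hair II, chr11:99969001-99987200 (1408 reads) from Krt13-Krt15 into hair I, and chr11:100024401-100031400 (961 reads) from Krt19 into basal I. Beside these, the basal and hair parts held far smaller acetylated regions. Basal II was led by chr15:101522601-101530000 with 511 reads (rank 3059), and basal I by chr11:100138601-100140400 with 69 reads (rank 22128). The strongest in the hair parts were chr15:101282601-101290600 in hair II with 739 reads (rank 1603), chr11:99926001-99932400 in hair I with 552 (rank 2678) and chr11:99440001-99444400 in Krtap with 236 (rank 8835). Intermediate values were found at Krt13-Krt15, keratins of stratified epithelia, where chr11:99969001-99987200 held 1408 reads (rank 445) directly beside Krt19. The median H3K27ac region of the whole list held 136 reads, and that of the windows 140, so it was the upper end and not the middle of the keratin regions that stood high.

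H3K4me3 gave the same leaders. In Krt8-Krt18, chr15:101852401-101866200 held 5132 reads (rank 49 of 24492) and chr15:101827401-101838800 held 4016 (rank 157), and in Krt19 chr11:99999801-100010400 held 4566 (rank 85). The first rank in the windows belonged to the Krt7 end, where chr15:101239401-101260400 was 21.0 kb long with 6226 reads, rank 21. Basal II had chr15:101520001-101528600 with 868 reads (rank 8255). No H3K4me3 region lay wholly in basal I. There, chr11:100138801-100140400 (132 reads) ran past the outer edge, and chr11:100027601-100031000 (437 reads) reached in from Krt19. Apart from the region at the Krt7 end, which reaches into hair II, no H3K4me3 region of the hair parts held over 278 reads, below the list's median of 319.5.

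In Krt222-Krt40, H3K27me3 was listed on the outer side. All of its 16 H3K27me3 regions lay between chr11:99042601 and chr11:99269400, on the side of Krt222 and the root sheath keratins. The 5 H3K27ac regions with the most reads all lay beyond, from chr11:99287801 onwards, towards Krt20 and Krt23. There, H3K4me3 regions chr11:99292601-99304000 (3557 reads, rank 251) and chr11:99346801-99359800 (3116 reads, rank 417) were matched by H3K27ac regions of 1254 and 1777 reads (ranks 570 and 260). Active marks were also listed among the H3K27me3 regions: H3K4me3 chr11:99089001-99094600 (1982 reads, rank 2016) and chr11:99244801-99249600 (1476 reads, rank 4086), and H3K27ac chr11:99243601-99249000 (529 reads, rank 2878). The contrast was read from the values and has no border of its own in the division above.

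The widest region of any list in the windows was one of H3K27me3. It was chr15:101639801-101759200 in suprabasal II, 119.4 kb long with 4179 reads, rank 20 of 30556. The neighbouring chr15:101586601-101638600 was 52.0 kb long with 1700 reads (rank 241). In hair II, chr15:101372401-101405200 held 991 reads (rank 717). Basal II was led by chr15:101444601-101457400, shared with hair II, at 282 reads (rank 5544), and basal I by chr11:100050401-100057000 at 130 reads (rank 14538).

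**Figure D3:**
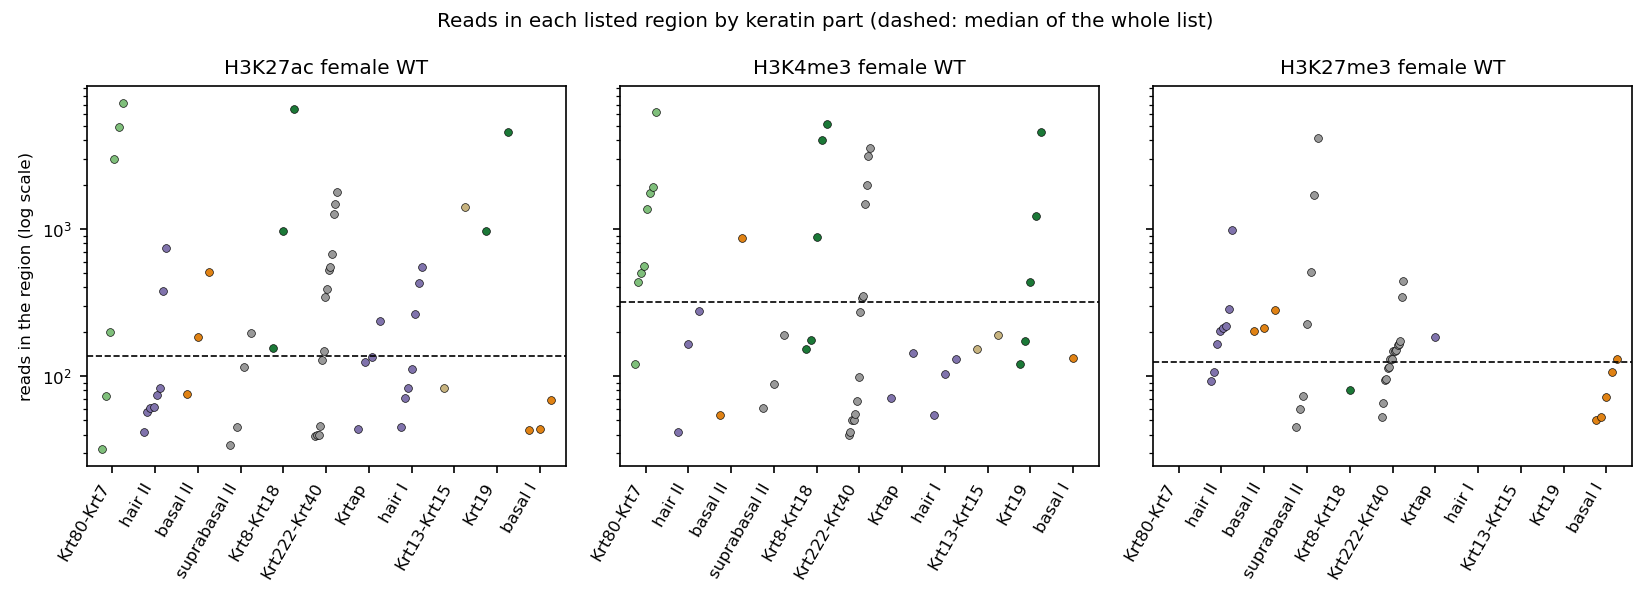
Reads in each listed region (points, log scale) by keratin part for H3K27ac, H3K4me3 and H3K27me3 in the female WT line, with the median of the whole list as a dashed line. The highest H3K27ac and H3K4me3 points lie in Krt80-Krt7, Krt8-Krt18 and Krt19, and the highest H3K27me3 point in suprabasal II.

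H3K4me1 was listed in 4 lines, so it shows which keratin parts carried the mark whatever the genotype and sex. The ductal parts were covered at 93.0% in the female WT line, 93.0% in the female KO line, 93.4% in the male WT line and 92.2% in the male KO line, and all 4 lists coincided over 87.2 kb of the 100 kb. Over the genome span all 4 coincided over 3.10%. Ductal minus joined basal and hair coverage was 81.1 percentage points in female WT, 80.6 in female KO, 77.8 in male WT and 74.9 in male KO. The region around the middle of Krt8-Krt18 had nearly the same borders in the 4 lines. It ran chr15:101833601-101859200 in female WT with 2597 reads (rank 132 of 56076) and chr15:101834401-101859400 in female KO with 1981 (rank 96 of 35041). In male WT it was chr15:101834601-101859000 with 2844 (rank 130 of 64247), and in male KO chr15:101834401-101859200 with 3768 (rank 55 of 49780). At Krt19, chr11:100006801-100031800 in female WT held 2108 reads (rank 216), and the female KO list had 1 wider region, chr11:99995401-100032200, with 2649 reads (rank 44). In the male lines the Krt19 region held 3219 reads in WT (rank 97) and 2628 in KO (rank 143).

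Krt80-Krt7 was covered at 83.1% in female WT, 79.8% in female KO, 82.0% in male WT and 96.7% in male KO. The male KO list had a region that the other 3 lacked, chr15:101179201-101189400 with 360 reads, and its neighbour chr15:101144001-101177200 held 6710 reads at rank 10, the first in that list by reads per kb. H3K4me1 coverage of Krt13-Krt15 was 41.3% in female WT, 91.3% in female KO, 77.3% in male WT and 83.3% in male KO. The female WT line was the low one of the 4. Its H3K27ac regions nevertheless covered 80.0% of Krt13-Krt15.

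**Figure D4:**
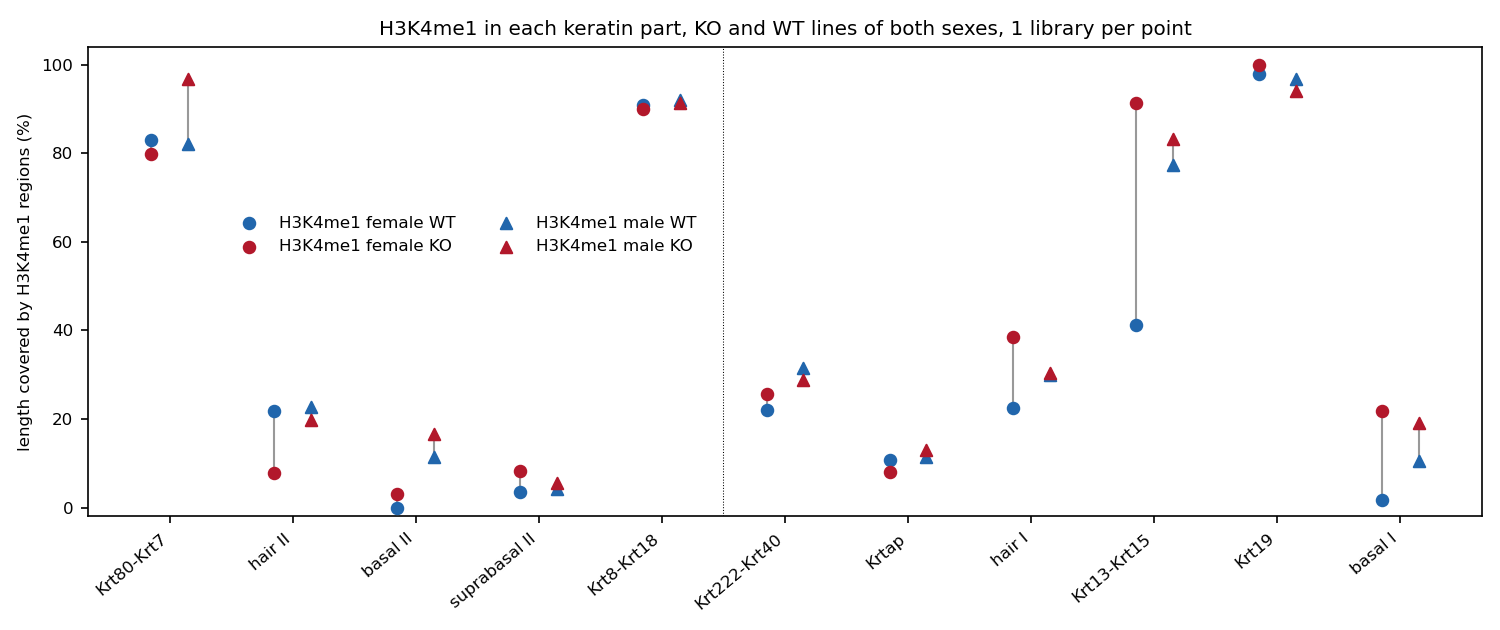
Percent of the length of each keratin part covered by H3K4me1 regions (y axis) in the female (circles) and male (triangles) lines, WT in blue and KO in red, each point 1 library and each grey line joining KO and WT of 1 sex. Points coincide at Krt8-Krt18, and both KO points stand above both WT points at basal I, Krt13-Krt15, suprabasal II and, narrowly, hair I.

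The second question was what KO and WT lines differed in, with a region counted as lacking a counterpart when no base of it was overlapped in the list of the other genotype. Brackets give exact 95% binomial intervals, which cover counting error only, and regions are not replicates. In the ductal parts every H3K4me1 region had a counterpart: 0 of 7 female WT, 0 of 5 female KO, 0 of 7 male WT and 0 of 8 male KO regions lacked one. Counts this small allow shares of up to 41.0%, 52.2%, 41.0% and 36.9%. Each H3K4me1 list covered 92.2% to 93.4% of the ductal parts, and 1 bp of overlap was enough. A region there could thus hardly lack a counterpart, and the 0 counts say little about genotype. Over both keratin windows, 20 of 69 female WT regions (29.0% [18.7 to 41.2]) had no KO counterpart, where the whole list had 51.1%. In the male lines it was 15 of 76 WT regions (19.7% [11.5 to 30.5]), against 42.0% of the list. Both shares lay below that of their list. The intervals treat neighbouring regions of 1 library as independent and are no test of genotype. The window regions were also longer and held more reads than their lists. In female WT the medians were 3.2 kb and 144 reads, against 2.8 kb and 95 reads. In male WT they were 4.0 kb and 184 reads, against 3.0 kb and 130 reads. Longer regions meet 1 bp of overlap more easily, and the part of this in the shares was not tested. By window, the female WT shares were 28.0% (type II) and 29.5% (type I), against 60.2% of chromosome 15 and 38.9% of chromosome 11. The male WT shares were 18.5% and 20.4%, against 35.9% and 41.6%. The intervals of female type I (16.8 to 45.2) and male type II (6.3 to 38.1) include the share of their chromosome.

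Of the female KO regions 23 of 61 (37.7% [25.6 to 51.0]) had no WT counterpart, against 23.4% of the list, and of the male KO regions 19 of 79 (24.1% [15.1 to 35.0]), against 25.4%. The regions found in female KO alone lay almost all on the type I side. There, 22 of 46 female KO regions had no WT counterpart (47.8%, against 22.7% of chromosome 11), and in the type II window it was 1 of 15 (6.67%, against 15.0% of chromosome 15). In the male KO line it was 10 of 48 on the type I side (20.8%, against 14.7% of chromosome 11) and 9 of 31 on the type II side (29.0%, against 23.2% of chromosome 15). The female KO list is shorter than the WT list, and when both were trimmed to equal length by reads the windows held 61 KO and 44 WT regions. The share without a counterpart was then 52.5% in KO and 15.9% in WT. The shares of the whole lists at that length were not computed, so these values have no background beside them.

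The basal keratin parts held more H3K4me1 in KO than in WT in both sexes. So did Krt13-Krt15, suprabasal II and, by 0.4 percentage points in the male lines, hair I. Coverage of the basal parts was 12.5% in female KO against 0.818% in female WT, and 17.8% in male KO against 10.9% in male WT, differences of 11.6 and 6.9 percentage points. With only the 50% of each list with the most reads these differences were 7.4 and 4.4. At basal I, with Krt14, Krt16 and Krt17, the values were 21.8% and 1.64% in the female lines and 19.1% and 10.4% in the male lines. Length in both KO lists and neither WT list came to 10.4 kb of basal I, or 9.45%, against 0.63% of chromosome 11 and 0.478% of the genome span. It was not particular to the basal parts: the share was 8.67% at Krt13-Krt15, 3.45% at hair I and 0% at basal II. Of the regions touching the basal parts, 6 of 8 in female KO (75.0% [34.9 to 96.8], against 23.4% of the list) and 5 of 10 in male KO (an interval of 18.7 to 81.3%, against 25.4% of the list) had no WT counterpart. In the other direction it was 0 of 1 in female WT (51.1% of the list) and 1 of 6 in male WT (42.0%). The 1 female WT region was the Krt19 region chr11:100006801-100031800, which covered 1.8 kb of basal I. A Krt19 region that reaches into basal I is also among the regions counted in each of the other H3K4me1 lists. These are few regions, and the male KO interval includes the share of its list.

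The regions behind the basal I values were modest by rank except at the edge. In female KO, chr11:100109001-100118000 held 340 reads (rank 4457), and 4 others between chr11:100059601 and chr11:100078800 held 37 to 89 reads. The widest, chr11:100136601-100162000 with 1419 reads (rank 244), ran mostly outside the window, where the female WT list overlapped it. In male KO, chr11:100067201-100072200 held 360 reads (rank 6883) and chr11:100112601-100118600 held 366 (rank 6720). Of the 5 female KO regions without a counterpart, 1 was overlapped by H3K27ac of the female WT line, chr11:100109001-100118000.

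At basal II, with Krt5 and the wound keratins Krt6a and Krt6b, both male lines carried more H3K4me1 than both female lines. H3K4me1 coverage was 3.09% in female KO, 0% in female WT, 16.5% in male KO and 11.5% in male WT. The male KO list had chr15:101517801-101530400 with 1286 reads (rank 715), and the male WT list had chr15:101523601-101529600 there with 326 reads (rank 10739). Neither female list had an H3K4me1 region there, although H3K4me3 and H3K27ac of the female WT line did. Male and female lines differ in more than their sex label, and the 2 cannot be told apart.

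The hair parts gave no common direction. H3K4me1 coverage was 12.4% in female KO and 15.2% in female WT, and 17.2% in male KO and 17.0% in male WT. At equal list lengths the female difference of -2.8 percentage points became -0.1. Hair II was covered at 7.79% in female KO and 21.8% in female WT, and hair I at 38.4% and 22.4%. The directions were thus opposite on chromosomes 15 and 11, and the female WT list covered more of chromosome 15 as a whole, 13.3% against 5.73%, whereas chromosome 11 was at 13.4% and 11.3%. Of the hair regions, 14 of 31 in female WT (45.2%, against 51.1% of the list) and 10 of 26 in female KO (38.5%, against 23.4%) had no counterpart. In the male lines it was 10 of 35 in WT (28.6%, against 42.0%) and 8 of 33 in KO (24.2%, against 25.4%).

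Over both windows, the female KO region with the most reads and no WT counterpart was chr11:99200601-99210600 in Krt222-Krt40, with 581 reads (rank 1822), and it was overlapped by H3K27ac of the female WT line. In the opposite direction, female WT had chr11:99295001-99305400 in the same part with 573 reads (rank 2734). Male KO was led by the regions of 360 reads each in Krt80-Krt7 and basal I named above, and male WT by chr15:101275401-101280000 in hair II with 178 reads (rank 22935).

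MLL4 was listed in the female lines only. Its KO list held 32 regions in the windows and its WT list 8, from whole lists of 13152 and 2130. On chromosome 15 as a whole the WT list was the longer one, with 518 regions against 290. Of the 32 KO regions 29 (90.6% [75.0 to 98.0]) had no WT counterpart, against 95.2% of the list, and of the 8 WT regions 5 (62.5% [24.5 to 91.5]), against 71.7%. The keratin windows thus lay close to the lists as a whole in both directions. Where the regions lay was uneven. MLL4 of the KO line covered 18.0% of the ductal parts, 0% of the basal parts and 1.23% of the hair parts. This was not particular to the ductal parts: they held 8 of its regions, and Krt80-Krt7, in none of these groups, also held 8. MLL4 of the WT line had no region in the ductal parts. Its list held 0.829 regions per Mb over the genome span and 5.17 over chromosome 15, so 100 kb can easily hold none. Whether MLL4 at the ductal parts differed between KO and WT was not tested.

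In Krt8-Krt18 the 3 MLL4 regions of the KO line were chr15:101845401-101849200 with 149 reads (rank 125 of 13152), chr15:101861201-101865400 with 121 (rank 263) and chr15:101806401-101808600 with 83 (rank 945). The Krt19 part held 5, led by chr11:100005801-100008000 with 79 reads (rank 1115). Krt80-Krt7 held 8, led by chr15:101217601-101220200 with 113 reads (rank 341). The Krtap block had chr11:99441001-99443800 with 122 reads at rank 259, the second of the windows by reads. In the WT line 4 of the 8 regions lay in Krt80-Krt7, the leading one chr15:101255201-101257600 with 82 reads (rank 155 of 2130). The others were 1 each in hair II (chr15:101387601-101388600, 31 reads), basal II (chr15:101498201-101500000, 54 reads), Krt222-Krt40 (chr11:99315401-99316800, 49 reads) and Krtap (chr11:99495401-99497600, 60 reads).

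The windows held MLL4 regions of the KO line at 18.1 per Mb in the type II and 17.4 per Mb in the type I window. Chromosome 15 had 2.89 per Mb, chromosome 11 had 4.66 and the genome span 5.12. Nearly all of these MLL4 regions lay on active chromatin of the female WT line: 31 of 32 were overlapped by H3K27ac and 26 of 32 by H3K4me3, against 51.3% and 39.2% of the list, and 0 of 32 by H3K27me3, against 3.83%. For the WT line the densities were 8.33 and 1.83 per Mb against 0.829 over the genome span. In that list chromosome 15 as a whole had 5.17 per Mb and chromosome 11 had 0.85. The part of the chromosome in the value of the type II window was not tested.

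KDM6A itself, labelled as knocked out in the KO line, had 10 regions in the windows in the female WT line and 3 in the female KO line. None coincided: 10 of 10 WT regions lacked a KO counterpart, against 91.0% of the list, and 3 of 3 KO regions lacked a WT counterpart, against 95.6%. The KO list as a whole was the longer one, with 5961 regions against 2847. In the WT list 3 regions lay in Krt80-Krt7, of which chr15:101149201-101152600 held 142 reads (rank 45 of 2847), chr15:101198601-101200400 held 72 (rank 344) and chr15:101162201-101162800 held 27 (rank 2792). Krt8-Krt18 had 1, chr15:101839001-101840600 with 51 reads (rank 936), and Krt19 had none. The remaining 6 held 36 to 51 reads: 1 in hair II (chr15:101284201-101285200), 1 in suprabasal II (chr15:101771801-101773200), 1 in Krt13-Krt15 (chr11:99985401-99986400) and 3 in Krt222-Krt40 (chr11:99309401-99310600, chr11:99316001-99316800 and chr11:99336201-99336800).

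The KO list had chr11:99357201-99359200 in Krt222-Krt40 with 56 reads (rank 1157 of 5961), chr11:100008401-100009600 in Krt19 with 40 (rank 3215) and chr11:99520001-99521000 in Krtap with 35 (rank 4343). All 10 WT regions were overlapped by H3K27ac and all 10 by H3K4me1 of the same line, against 40.1% and 61.5% of the list, and 0 of 10 by H3K27me3, against 6.25%. All 3 KO regions also lay on H3K27ac of the WT line, against 34.5% of the list. WT density was 8.33 per Mb in the type II window, 6.24 per Mb over chromosome 15 and 1.11 per Mb over the genome span, and in the type I window 3.67 per Mb against 0.901 over chromosome 11. Fewer or weaker binding events and a less complete list cannot be told apart at these read counts.

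In depth, the lists summed to between 108165 reads in regions for MLL4 of the WT line and 17526099 for H3K4me3. The sources used here do not give the total depth of the libraries. In the top 1% of their own list by reads stood 6 keratin regions of H3K27ac, 4 of H3K4me3, 2 of H3K27me3, 5 to 8 of each H3K4me1 list, 1 of MLL4 in KO and none of the other 3 lists. The H3K27ac and H3K4me3 regions among them lay in Krt80-Krt7, Krt8-Krt18, Krt19 and, for 1 H3K27ac region, Krt222-Krt40, and both H3K27me3 regions lay in suprabasal II.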

How the data were processed

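The deposited lists name a stretch of a chromosome per line, followed by 1 whole number. This deposited number was read as the count of reads per region made by the authors' region caller, from its values alone, because no header or label explains it. Per the submitters' processing notes, the tools were Bowtie 1.1.2 and SICER 1 and the build was mm9, with no role stated for each. Which control and threshold lay behind a list, and how many reads were mapped, is not given in the sources used here. Each list came from its own library. Regions of a list were never closer than 400 bp (H3K27ac: 600 bp, H3K27me3: 800 bp), so neighbours were joined differently by mark. Signal under a list's threshold does not show. Counts served only to rank regions within a list.

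Positions are printed counting from 1. Covered length was clipped to each part and counted in bp. Length shared between lists, or free of them, was scored in steps of 200 bp. The genome span of 2569 Mb runs between the outermost regions of all lists on each chromosome and so takes in unmappable sequence. A counterpart needed at least 1 bp of overlap, and intervals are exact Clopper-Pearson intervals at 95%. A region that touched several parts was counted in each in shares by part. Regions named were the one with the most reads per list and part, the KDM6A and MLL4 regions (for over 20 in a list, the leading 5), and up to 5 per direction without a counterpart. The text gives the leading ones of each. The parts, gene lists and rules were chosen with earlier results of these data known. Promoters were matched by symbol.

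Alternatives were at least 50% of a region covered, the 50% of each list with the most reads, lists trimmed to equal length by reads, regions within 5 kb merged, midpoints in place of overlap with a window, inner borders moved by 10 kb, and the Krtap part left out. For KO minus WT coverage they were chosen after seeing the data. Python 3.11.15, numpy 2.4.6, pandas 2.3.3, scipy 1.17.1 and matplotlib 3.10.9 were used. Overlap and coverage steps were tested on simulated data, and bedtools 2.31.1 gave the same overlap counts.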

Additional observations from a re-analysis of the deposited data

Results flagged for a closer look

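KO minus WT coverage by H3K4me1 had opposite signs in the female and male lines in 3 of the 11 keratin parts, among differences of at least 2 percentage points in both sexes. It was -3.3 percentage points in the female and 14.7 in the male lines at Krt80-Krt7, 3.5 and -2.9 at Krt222-Krt40, and 2.0 and -2.7 at Krt19. The difference between the sexes was not tested, as each value rests on 1 KO and 1 WT library.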

How the results depend on the processing

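Of 105 alternatives computed for 21 results, 94 moved the value little (inside the exact interval of a share, or for coverage within 2 percentage points or 1.5 times), 11 moved it further, and none reversed the sign of a difference of 2 percentage points or more. With lists trimmed to equal length by reads, the share of regions without a counterpart in the female H3K4me1 lists was 15.9% in WT and 52.5% in KO. Both are shares of the regions in the windows, and those of the whole trimmed lists were not computed. At the same trimming, the female KO minus WT coverage of the hair parts was -0.1 percentage points. With the 50% of each list with the most reads, KO minus WT coverage of the basal parts was 7.4 in the female and 4.4 in the male lines. KO minus WT coverage of the ductal parts, reported at 0.0 in the female and -1.2 in the male lines, was 4.7 in the female and 2.2 in the male lines with inner borders 10 kb lower, 1.8 in the male lines with borders 10 kb higher and 1.0 with regions within 5 kb merged, so it has no stable sign. Ductal minus basal and hair coverage by H3K27me3 was -6.6 with borders 10 kb lower and -24.6 without the Krtap part. Ductal minus basal and hair coverage stayed between 70.7 and 87.2 for H3K27ac, 45.1 and 69.3 for H3K4me3, and 63.4 and 85.3 over the 4 H3K4me1 lists. The causes were not tested. No paired analysis was possible because each group held 1 library, so the groups share a single replicate number. The 3 and 10 KDM6A and 8 MLL4 regions of the short lists limit any statement on those factors, and without mapped reads a missing region cannot be told from a weak one.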
